A study of Bos taurus with 6 samples.

Results

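A set of 10 macrophage marker genes was read from total RNA libraries of cattle testis: CD68, CD14, CSF1R, CD163, MRC1, AIF1, C1QA, C1QB, C1QC and CD74. They were taken by gene symbol from a table of 47249 genes, and 10 of 10 symbols were found, each in 1 entry. Positions below are those of that table, and its genome build is taken up with the processing. The libraries came from testes of Wandong cattle, a local Chinese breed, and all animals were untreated. The calf group held 3 immature calves aged 3 months, and the bull group held 3 andrologically mature bulls aged 3 years, with 1 library per animal. Ribosomal RNA was depleted before sequencing. The values are FPKM, fragments scaled to transcript length and to the fragments of the library, so a level is a share of the RNA of the whole piece of testis.

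Macrophages are phagocytes that live in the interstitium of the testis, beside the Leydig cells and blood vessels, and on the wall of the seminiferous tubules. They depend on signals through the CSF1 receptor, take up dying cells and proteins through scavenger receptors, make the C1q chains of complement, and present peptides on MHC class II molecules. The interstitial population of the rodent testis is known for CSF1R, CD163 and MRC1, and the one at the tubule wall for MHC class II. Most of these genes are also used by macrophages of other organs, microglia of the brain among them.

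The library labelled calf 3 stood apart from the other 5. Its squared correlation of log10(FPKM + 1) was 0.704 with calf 1 and 0.712 with calf 2, which reached 0.970 with each other, and the 3 pairs of bulls lay between 0.952 and 0.957. The Leydig gene INSL3 had an FPKM of 0.121 in calf 3, whereas calf 1 had 1349 and calf 2 had 1041, and 5 of the 9 entries of the Leydig list were listed at 0 there. Of the 9 Sertoli genes listed, 6 were lowest in calf 3, and WT1, GATA4 and FSHR were listed at 0. All 7 genes listed for oligodendrocytes, astrocytes and neurons were highest in calf 3, with a summed FPKM of 13456 against 9.24 to 12.7 in the other libraries. The testis label of that library thus goes against its defining markers, and each test between bulls and calves is given with and without it. Germ cell genes also moved with age: the summed FPKM of 8 of them was 49.7 and 64.3 in calf 1 and calf 2, 2.55 in calf 3 and 12305 to 13917 in bulls. Their part in the results below was not tested.

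The macrophage markers did not move as one group between calf and bull testes. MRC1, CD14 and the entries summed under AIF1 were higher in bulls, whereas CSF1R, C1QB and CD74 were lower. Of the 10 genes, 9 reached an FPKM of 1 in 3 or more libraries and were tested, and 6 of them were called, 3 higher and 3 lower in bulls. Genes were called where the adjusted p was under 0.05 and bulls and calves differed by 1 log2 unit or more (limma on log2(FPKM + 1), Benjamini-Hochberg over 18115 genes). Over all genes tested, 45.3% were called, 35.7% higher and 9.61% lower in bulls. Without calf 3, the calls were 8 of 9, with 3 higher and 5 lower, as C1QA and C1QC were then also called. The background was then 51.5% of genes called, 37.9% higher and 13.6% lower. The median log2 fold change of the 9 genes was −1.31, and −1.14 without calf 3, beside 0.43 over all genes in both fits. For AIF1 the direction is that of a sum over 3 entries, and its Ensembl transcript AIF1-201 went the other way. With AIF1-201 in place of the sum, a setting added after the values were seen, the calls were 2 higher and 4 lower, and 2 higher and 6 lower without calf 3. Bulls and calves did not overlap in 6 of the 9, 3 higher and 3 lower in bulls, beside 67.4% of all genes tested, 46.1% higher and 21.3% lower. Without calf 3 none of the 9 overlapped, with 3 higher and 6 lower, beside 84.4% of genes, 53.5% higher and 30.9% lower. In these bulk libraries, fewer macrophages and less RNA of a gene per macrophage cannot be told apart. After median centring of the libraries the split was 2 higher and 4 lower.

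**Figure D1:**
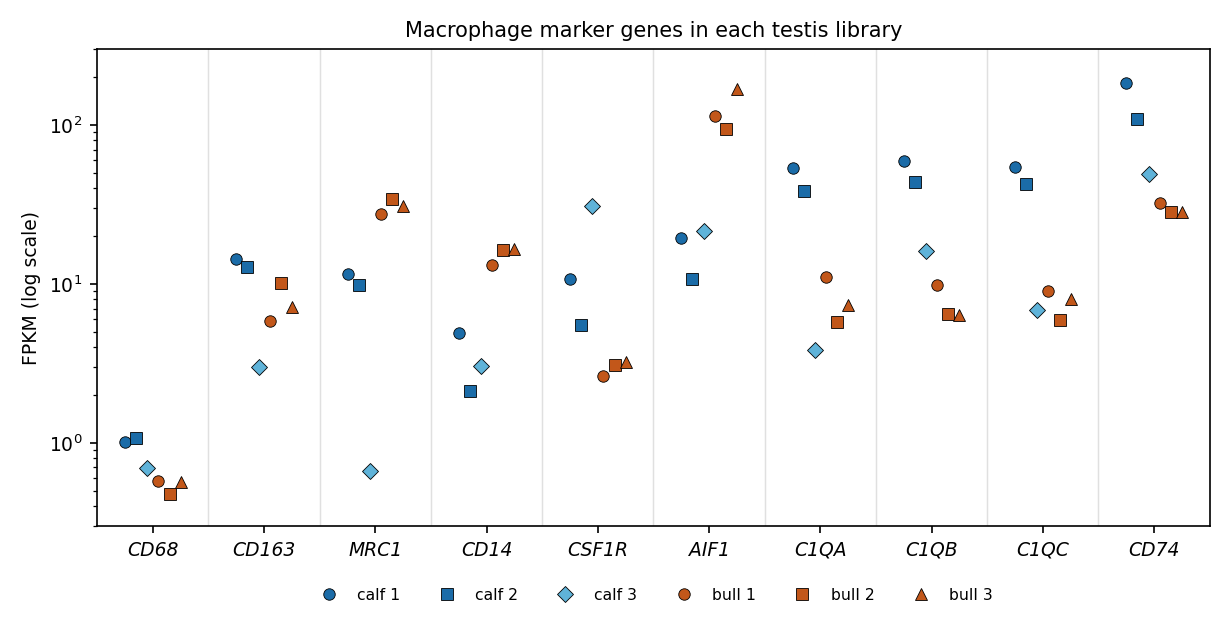
FPKM of the 10 genes (log scale) in each of the 6 libraries, blue for calves and orange for bulls. The bulls lie above all calves for MRC1, CD14 and AIF1 and below all calves for CD68, CSF1R, C1QB and CD74, and calf 3 lies far from calf 1 and calf 2 for MRC1, CSF1R and C1QA.

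CD68, CD163 and MRC1 encode a lysosomal glycoprotein, the scavenger receptor for haemoglobin bound to haptoglobin, and the mannose receptor. CD68 (ENSBTAG00000000133, chromosome 19, 27312058 to 27314128) had a low FPKM, 1.01, 1.07 and 0.692 in the calves and 0.571, 0.478 and 0.566 in the bulls, given here and below in the order of their replicate numbers. All bulls lay below all calves, but the gene missed the filter on FPKM and was not tested.

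CD163 (ENSBTAG00000019669, chromosome 5, 101786078 to 101818046) was at 14.4, 12.8 and 2.98 in calves and 5.82, 10.1 and 7.20 in bulls. The groups overlapped only through calf 3. The difference between bulls and calves was −0.15 on the log2 scale (standard error 0.56, adjusted p = 0.832), and −0.78 (standard error 0.22, adjusted p = 0.0177) without calf 3, under the size required for a call. The direction turned to 0.20 without calf 1 and to 0.12 without calf 2.

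MRC1 (ENSBTAG00000038048, chromosome 13, 32239914 to 32352564) was at 11.6, 9.82 and 0.665 in calves and 27.5, 34.4 and 31.0 in bulls. Every bull lay above every calf, and bulls were 2.89 times the mean of calf 1 and calf 2. MRC1 rose by 2.39 on the log2 scale (standard error 0.78, adjusted p = 0.0421), and by 1.45 (standard error 0.14, adjusted p = 0.000170) without calf 3. With calf 3 included, leaving out bull 1, bull 2 or bull 3 ended the call, with adjusted p between 0.106 and 0.121. So did adding 0.1 or 0.5 in place of 1 to each FPKM (adjusted p = 0.0677 and 0.0527), testing all genes without a filter (0.0650), quantile normalization (0.0877) and median centring (0.0791).

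The haemoglobin and iron genes around CD163 gave 0 higher and 2 lower calls among 9 tested (median log2 fold change −0.48), and again 0 and 2 without calf 3. LRP1, a receptor that takes up haem bound to haemopexin, was lower in bulls (−1.95, adjusted p = 0.000255), and −1.82 without calf 3. FTH1, the heavy chain of ferritin, was at 528, 579 and 1059 in calves and 304, 296 and 339 in bulls (−1.13, adjusted p = 0.0331), and −0.82 without calf 3, under the size required. HMOX1, which breaks down haem and is named here after its values were seen, was at 22.0, 17.3 and 1.34 in calves and 11.4, 5.97 and 6.55 in bulls, was not called with all libraries (−0.20, adjusted p = 0.863) and was called without calf 3 (−1.25, adjusted p = 0.00621).

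CD14 passes endotoxin of bacteria to the receptor TLR4 and its partner LY96. CD14 (ENSBTAG00000015032, chromosome 7, 51762895 to 51765768) was at 4.93, 2.13 and 3.06 in calves and 13.2, 16.4 and 16.5 in bulls. The lowest bull was above the highest calf, and calf 3 lay between calf 1 and calf 2. CD14 rose by 1.95 (standard error 0.27, adjusted p = 0.00144) with calf 3 and by 1.92 (adjusted p = 0.00109) without it. CD14 kept its direction and its call under all 15 alternatives, between 1.39 and 2.23. Its locus is crossed by 11 assembled entries of the neighbouring gene TMCO6, none above an FPKM of 1.79 in any library.

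Of the 8 genes tested of the endotoxin receptor pathway, 1 was higher and 1 lower in bulls (median −0.47), and 1 higher and 0 lower without calf 3. LY96 rose from 1.07, 0.792 and 0.493 in calves to 18.7, 21.2 and 20.8 in bulls (log2 fold change 3.58, adjusted p = 3.15e-05). It was 3.46 without calf 3. TIRAP, an adaptor of the receptor, fell by 1.01 (adjusted p = 0.00625), and by 0.83 without calf 3, under the size required. TLR2 (−0.91, adjusted p = 0.00938) and MYD88 (−0.67, adjusted p = 0.0144) missed the size required, also without calf 3 (−0.76 and −0.63). TLR4, named after its values were seen, was not tested: it was at 1.51, 0.843 and 0.980 in calves and 0.661, 0.417 and 0.435 in bulls.

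CSF1R is the receptor for CSF1 and IL34, the growth factors on which macrophages depend. CSF1R (ENSBTAG00000012771, chromosome 7, 61380054 to 61411558) was at 10.7, 5.51 and 30.7 in calves and 2.62, 3.09 and 3.25 in bulls. No bull reached the lowest calf, and calf 3 was 3.79 times the mean of calf 1 and calf 2. CSF1R fell by 1.76 on the log2 scale (standard error 0.57, adjusted p = 0.0401), and by 1.14 (standard error 0.26, adjusted p = 0.00821) without calf 3. The adjusted p was 0.0771 without calf 1 and between 0.102 and 0.120 without bull 1, bull 2 or bull 3.

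The list of CSF1R ligands, adaptors and macrophage transcription factors had 12 genes tested, of which 0 were higher and 3 lower in bulls (median −0.91), and 5 were lower without calf 3. CSF1 was at 3.62, 2.67 and 7.13 in calves and 0.832, 0.493 and 0.839 in bulls (−1.59, adjusted p = 0.00649), and differed by −1.26 without calf 3. The other ligand, IL34, was at 1.08, 0.720 and 12.4 in calves and 0.748, 1.01 and 0.777 in bulls, and was not called with calf 3 (−0.98, adjusted p = 0.328) or without it (−0.04, adjusted p = 0.817). INPP5D, a phosphatase of blood cells, fell by 1.42 (adjusted p = 0.00403) and FCER1G, the shared chain of Fc receptors, by 1.28 (adjusted p = 0.000873). Without calf 3 they fell by 1.16 and 1.27. TYROBP, an adaptor of myeloid receptors, was at 26.4 in calf 3, beside 4.202 and 2.33 in the other calves and 1.44 to 2.34 in bulls (−1.42, adjusted p = 0.171, and −0.51 without calf 3). SPI1, the transcription factor PU.1 of myeloid cells, was above all calves in all bulls. Its values were 3.19, 2.77 and 3.87 in calves and 6.46, 5.93 and 6.50 in bulls (0.78, adjusted p = 0.0106, and 0.88 without calf 3), under the size required.

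**Figure D2:**
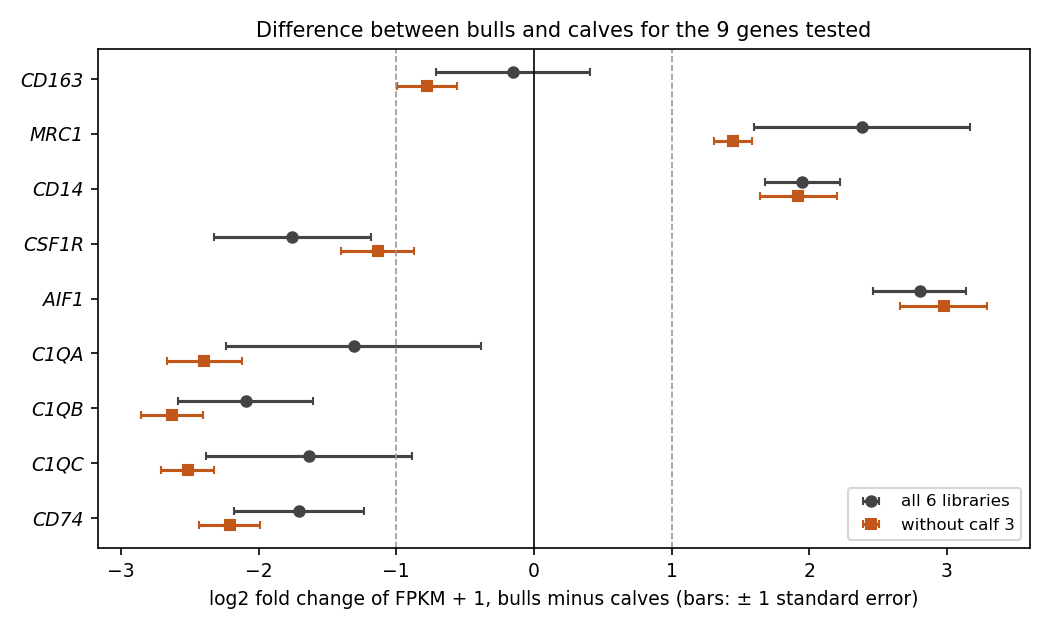
Log2 fold change of FPKM + 1 (bulls minus calves) with 1 standard error for the 9 genes tested, with all 6 libraries (grey circles) and without calf 3 (orange squares). Dashed lines mark the size required for a call. Without calf 3, MRC1 moves from 2.39 to 1.45 and C1QA from −1.31 to −2.40.

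AIF1, also called IBA1, is a calcium-binding protein of the actin cytoskeleton of macrophages and microglia. The table gave AIF1 (ENSBTAG00000020554, chromosome 23, 27673270 to 27703027) an FPKM of 19.5, 10.8 and 21.4 in calves and 113, 94.2 and 167 in bulls. At this level all bulls lay above all calves, by 2.80 log2 units (standard error 0.33, adjusted p = 0.000734), or 2.98 without calf 3. The value of the gene is a sum over 3 entries of the table of transcripts, and these did not move together.

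The Ensembl transcript AIF1-201 (ENSBTAT00000027388, 27685449 to 27687723) was at 19.5, 9.88 and 20.8 in calves and 4.08, 3.25 and 3.05 in bulls. Here all bulls lay below all calves, opposite to the sum. AIF1-201 fell by 1.93 (standard error 0.31, adjusted p = 0.00279, limma over 23212 transcripts), and by 1.75 (adjusted p = 0.00401) without calf 3. The entry TCONS_00208988 (27685449 to 27690539), which the authors assembled from the reads, shares its lowest coordinate with AIF1-201 and spans a longer stretch. It was listed at 0 in calf 1 and calf 2, at 0.0550 in calf 3 and at 109, 90.9 and 164 in bulls. It differed by 6.86 log2 units (standard error 0.25, adjusted p = 1.05e-05), or 6.89 without calf 3, values that depend on the 1 added to each FPKM. The assembled entry passed the filter only through the bulls, where it was high. In bulls it made up 96.1%, 96.6% and 97.9% of the AIF1 value, and AIF1-201 made up 1.82% to 3.59%. The remaining entry did not pass 0.905 in any library. The higher AIF1 value of bulls is therefore that of the assembled entry, and the table gives no strand by which to assign it. Whether its fragments belong to AIF1 was not tested.

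**Figure D3:**
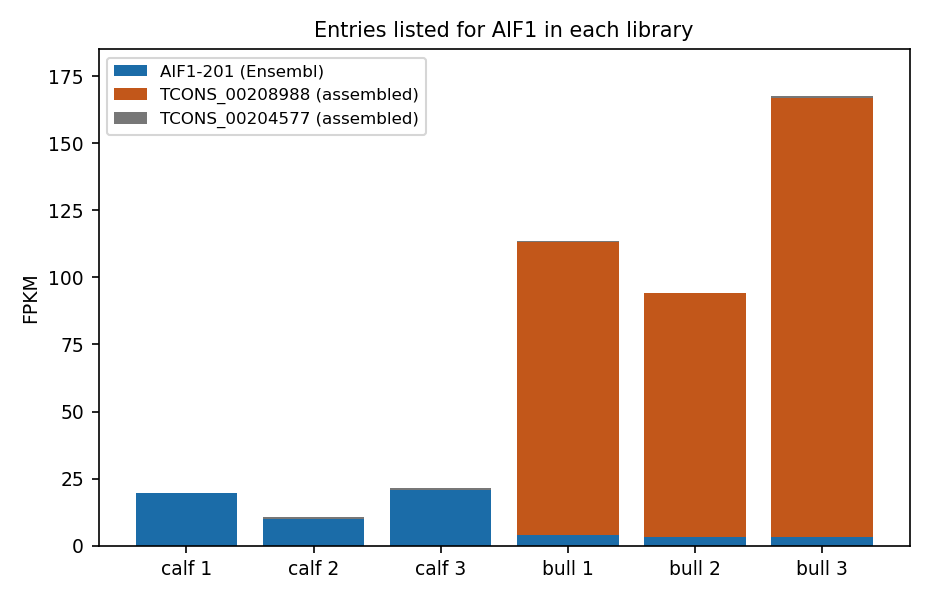
FPKM of the 3 entries listed for AIF1, stacked for each library. The bars of calves are almost wholly AIF1-201 (blue, 9.88 to 20.8), and those of bulls almost wholly the assembled entry TCONS_00208988 (orange, 90.9 to 164), above an AIF1-201 of 3.05 to 4.08.

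C1QA, C1QB and C1QC encode the 3 chains of C1q, the part of complement that recognises antibodies and dying cells, and tissue macrophages are its main source. The genes lie side by side on chromosome 2: C1QB (ENSBTAG00000011196) from 130166509 to 130173608, C1QC (ENSBTAG00000011193) from 130181311 to 130185682 and C1QA (ENSBTAG00000007153) from 130189849 to 130193588. C1QA was at 53.9, 38.2 and 3.86 in calves and 11.0, 5.80 and 7.39 in bulls. C1QB was at 59.7, 43.6 and 16.1 in calves and 9.82, 6.45 and 6.36 in bulls. C1QC was at 54.1, 42.5 and 6.82 in calves and 9.01, 5.93 and 8.04 in bulls. In calf 1 and calf 2 all chains were far above every bull, whereas calf 3 lay below all bulls for C1QA, among them for C1QC and above them for C1QB.

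With all libraries, C1QB fell by 2.10 (standard error 0.49, adjusted p = 0.0125), whereas C1QA (−1.31, standard error 0.93, adjusted p = 0.272) and C1QC (−1.63, standard error 0.75, adjusted p = 0.112) were not called. Without calf 3, all 3 chains were called lower in bulls, at log2 fold changes of −2.40, −2.63 and −2.52 for C1QA, C1QB and C1QC and adjusted p = 0.000352, 0.000112 and 7.52e-05. The mean of calf 1 and calf 2 was then 5.71, 6.85 and 6.31 times that of bulls. The call of C1QB with all libraries ended without bull 2 (adjusted p = 0.0518) or bull 3 (adjusted p = 0.0525).

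The chains held near-equal shares of their summed FPKM in calf 1, calf 2 and the bulls. C1QA made up 32.1% and 30.7% in calf 1 and calf 2 and 31.9% to 36.9% in bulls. C1QB took 35.6% and 35.1% in calf 1 and calf 2 and 29.2% to 35.5% in bulls. In calf 3 the shares were 14.4% for C1QA, 60.1% for C1QB and 25.5% for C1QC, outside the range of the other 5 libraries for each chain. At the level of transcripts, C1QA-202 made up 99.7% of C1QA in calf 3, against 62.8% to 94.7% in the other libraries, and C1QA-201 the rest.

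The other complement genes gave 1 higher and 2 lower calls among 14 tested (median −0.08), and 1 higher and 5 lower without calf 3 (median −0.77). C5, a terminal component, was higher in bulls (2.56, adjusted p = 0.000241, and 2.39 without calf 3). It reached an FPKM of 1 in bulls only and so passed the filter through the group where it was high. CFI, which cuts C3b, fell by 1.91 (adjusted p = 0.00685) and CLU, an abundant Sertoli product that also binds terminal complement, fell by 1.67 (adjusted p = 0.0209). Without calf 3 they fell by 1.78 and 2.14. C1R and C1S, the proteases that bind C1q, were named after their values were seen. They were at 31.8 and 34.1 (C1R) and 71.3 and 81.5 (C1S) in calf 1 and calf 2, but at 1.71 and 2.03 in calf 3. Bulls had 15.6 to 17.2 and 33.1 to 38.3, and with all libraries neither was called (C1R 0.24, adjusted p = 0.853, and C1S 0.45, adjusted p = 0.784). Without calf 3 both turned to lower in bulls, and C1S was called (−1.10, adjusted p = 0.000256) while C1R missed the size required (−0.97).

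CD74, the invariant chain that escorts MHC class II molecules to the compartment where peptides are loaded, had the highest level of the 10 genes in each calf. CD74 (ENSBTAG00000015228, chromosome 7, 61747923 to 61761468) was at 184, 109 and 48.9 in calves and 32.5, 28.4 and 28.5 in bulls. The groups did not overlap, and the bulls differed little from one another. CD74 fell by 1.71 (standard error 0.47, adjusted p = 0.0228), and by 2.21 (standard error 0.22, adjusted p = 0.000216) without calf 3. The adjusted p was 0.0639 without calf 2 and between 0.0673 and 0.0775 without bull 1, bull 2 or bull 3. Both Ensembl transcripts were lower in bulls, CD74-201 by 1.82 (adjusted p = 0.0195) and CD74-202 by 1.33 (adjusted p = 0.0482). Without calf 3 these were −2.33 and −1.79. An assembled antisense entry, CD74-AS1, is summed into the gene, and it made up 0.0941% to 0.628% of CD74 in calves and 2.17% to 3.28% in bulls. Of the 16 entries of all 10 marker genes in the table of transcripts, 12 were tested and 8 were called, 3 higher and 5 lower, beside 44.2% of all transcripts, 34.8% higher and 9.37% lower. Without calf 3 these were 11, with 3 higher and 8 lower, beside 49.2%, 36.1% and 13.1%. Groups did not overlap for 8 of the 12, 3 higher and 5 lower, beside 64.9% of transcripts, 44.1% higher and 20.8% lower. Without calf 3 all 12 were apart, 3 higher and 9 lower, beside 80.2%, 50.2% and 30%.

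Of the genes of MHC class II and its loading, 8 were tested, with 1 higher and 1 lower in bulls (median −0.82), and 1 higher and 4 lower without calf 3 (median −1.14). RFX5, a subunit of the factor that binds class II promoters, was higher in bulls (1.82, adjusted p = 0.000216), and its partner RFXAP was lower (−1.14, adjusted p = 0.0319). Without calf 3 these were 1.93 and −1.51. CIITA, the activator of class II genes, was at 3.63, 2.21 and 0.844 in calves and 0.621, 0.370 and 0.524 in bulls and was not tested. BOLA-DMA, which loads peptides, was at 10.3, 6.48 and 2.31 in calves and 2.43, 1.60 and 1.90 in bulls (−1.14, adjusted p = 0.0794), and was called without calf 3 (−1.63, adjusted p = 0.000881). Class II genes have near-identical and variable copies, among which reads may not be assigned with certainty.

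PTPRC encodes CD45, which white blood cells and tissue macrophages share and other cells of the testis lack. PTPRC was at 20.0, 17.8 and 3.78 in calves and 3.30, 3.42 and 2.77 in bulls, lower in all bulls than in all calves (−1.57, adjusted p = 0.0620), and called without calf 3 (−2.26, adjusted p = 3.04e-05). Of the 9 pan-leukocyte genes tested, 4 were lower in bulls with all libraries and 9 without calf 3 (median −1.26 and −1.86), and 0 were higher. LAPTM5 (−2.28, adjusted p = 0.000291), ITGB2 (−1.93, adjusted p = 0.000389) and CD53 (−1.57, adjusted p = 0.00312) were among those called with all libraries. Without calf 3 these were −2.21, −2.01 and −1.79.

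The markers were then set against PTPRC in the same library, as FPKM divided by FPKM, a description chosen after the values were seen. C1QA per PTPRC was 2.70 and 2.15 in calf 1 and calf 2 and 3.34, 1.70 and 2.67 in bulls. For C1QB the ratios were 2.99 and 2.45 in those calves and 2.98, 1.89 and 2.30 in bulls, and for CD74 9.21 and 6.10 against 9.84, 8.31 and 10.3. The C1q chains and CD74 thus overlapped between calf 1, calf 2 and the bulls on this scale, although their FPKM did not. AIF1-201 gave 0.975 and 0.555 in calf 1 and calf 2 and 0.950 to 1.23 in bulls, also with an overlap.

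The other ratios did not overlap between calf 1, calf 2 and the bulls. MRC1 per PTPRC was 0.581 and 0.552 in calf 1 and calf 2 and 8.33, 10.1 and 11.2 in bulls. CD14 gave 0.247 and 0.120 in those calves and 4.01, 4.80 and 5.97 in bulls. CD163 per PTPRC was 0.722, 0.721 and 0.789 in the 3 calves and 1.76, 2.95 and 2.60 in bulls. CSF1R gave 0.538 and 0.309 in calf 1 and calf 2 and 0.794 to 1.18 in bulls, but 8.13 in calf 3. CD68 was at 0.0508 and 0.0601 against 0.140 to 0.205, with calf 3 at 0.183, inside the range of the bulls. Relative to PTPRC, bulls were 17.4 times calf 1 and calf 2 for MRC1, 26.9 times for CD14 and 3.38 times for CD163, beside 1.06 times for C1QA. CSF1R, CD163 and CD68 were lower in bulls than in those calves by FPKM but higher on this scale. Because other leukocytes share PTPRC, the ratios also move with such cells and are not levels per macrophage.

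**Figure D4:**
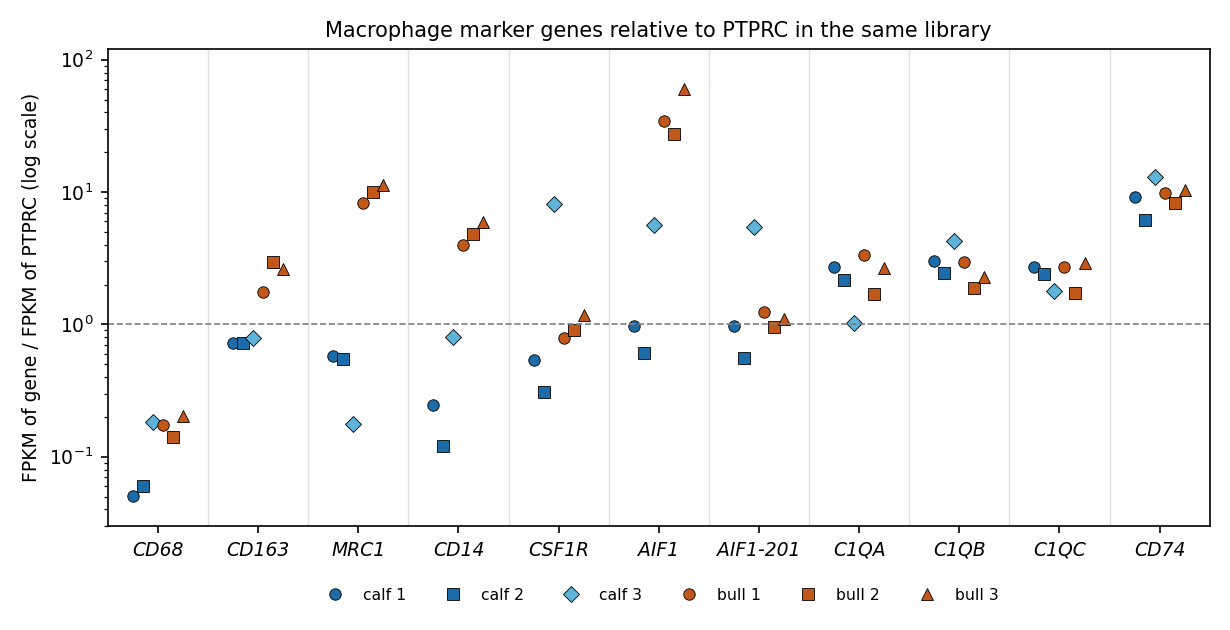
FPKM of each gene, and of the transcript AIF1-201, divided by the FPKM of PTPRC in the same library (log scale), blue for calves and orange for bulls. C1QA, C1QB, C1QC, CD74 and AIF1-201 overlap between calf 1, calf 2 and the bulls, and MRC1 and CD14 are 17.4 and 26.9 times higher in bulls than in those calves.

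The order of the levels differed between the ages. In calf 1 and calf 2, CD74 was highest, followed by C1QB, C1QC and C1QA, and CD68 was lowest, below CD14 and CSF1R. C1QB, C1QC and C1QA differed less from one another in each of these calves than calf 1 differed from calf 2. In bulls, the AIF1 sum came first, then MRC1 and CD74, whose order was not the same in every bull, then CD14. Below them, CD163 and the C1q chains overlapped in bulls, and CSF1R and CD68 were the lowest in each bull. With AIF1-201 in place of the sum, AIF1 moved from rank 1 to rank 8, 8 and 9 in bulls and was below CSF1R in bull 3, and CD74 or MRC1 came first. By share of the summed FPKM of the 10 genes, CD74 held 44.4% and 39.5% in calf 1 and calf 2 and 10.3% to 14.4% in bulls. MRC1 held 2.80% and 3.57% in those calves and 11.2% to 16.8% in bulls. With AIF1-201 in the sum in place of AIF1, CD74 held 24.9% to 28.0% and MRC1 23.7% to 30.1% in bulls, and in calf 1 and calf 2 CD74 held 44.4% and 39.6%. Calf 1 was above calf 2 for 9 of the 10 genes, CD68 being the exception, with log2(FPKM + 1) differences of up to 0.92 for CD14.

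Calf 3 is 1 library, so its values are given with no test. It was lower than the mean of calf 1 and calf 2 by 3.25 on the log2(FPKM + 1) scale for C1QA, by 2.81 for MRC1 and by 2.65 for C1QC, past 2 log2 units, as were 5.45% of all genes tested. No member was higher by that much, as 5.42% of genes were, and CSF1R was nearest with 1.86. CSF1R held 22.7% of the summed FPKM of the 10 genes there, beside 2.59% and 2.001% in the other calves. Of 9 microglia genes found, 6 were highest in calf 3. P2RY12, a purine receptor of resting microglia, was at 19.0 there and at most 0.340 elsewhere. SALL1 was at 6.31 against at most 0.263. CX3CR1, the fractalkine receptor, was listed with monocyte genes and not among these 9, and was at 15.4 against at most 1.78. Of the microglia genes, TMEM119, in contrast, was at 0.0821 in calf 3, far under the 7.70 and 6.42 of the other calves. OLFML3 was at 6.14 in calf 3, also under the 32.3 and 20.0 of the other calves. Of the 9 microglia genes, 4 reached an FPKM of 1 in both calf 1 and calf 2. Between bulls and calves, 4 microglia genes were tested, with 1 higher and 3 lower in bulls, and 1 higher and 2 lower without calf 3. The part of such cells in the calf 3 values was not tested.

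Among 15 further tissue macrophage genes tested, 3 were higher and 3 lower in bulls (median −0.45), and 3 higher and 6 lower without calf 3 (median −0.81). TIMD4, a receptor for phosphatidylserine on dying cells, was at 1.90, 2.35 and 0.120 in calves and 25.6, 27.9 and 32.2 in bulls (3.73, adjusted p = 0.000670, and 3.24 without calf 3). All bulls were thus over 10 times every calf. GPNMB, a glycoprotein of lysosome-rich macrophages, was also higher in bulls (1.303, adjusted p = 0.00644, and 1.06 without calf 3). MERTK, a receptor for dying cells that Sertoli cells also carry, fell by 1.89 (adjusted p = 0.000307), and by 1.91 without calf 3, from 10.7, 8.66 and 9.11 in calves to 1.97, 2.08 and 1.47 in bulls. ITGAM, the integrin CD11b, fell by 1.70 (adjusted p = 0.0120), and by 1.27 without calf 3, from 2.92, 2.48 and 8.19 in calves to 0.492, 0.824 and 0.334 in bulls.

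Lysosomal genes had 13 members tested, of which 0 were higher and 4 lower in bulls (median −0.92), and 6 were lower without calf 3. LGMN, a protease of the lysosome, fell by 2.27 (adjusted p = 0.00268) and NPC2, which moves cholesterol, by 1.78 (adjusted p = 0.0234). Without calf 3 their log2 fold changes were −2.665 and −2.36.

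**Figure D5:**
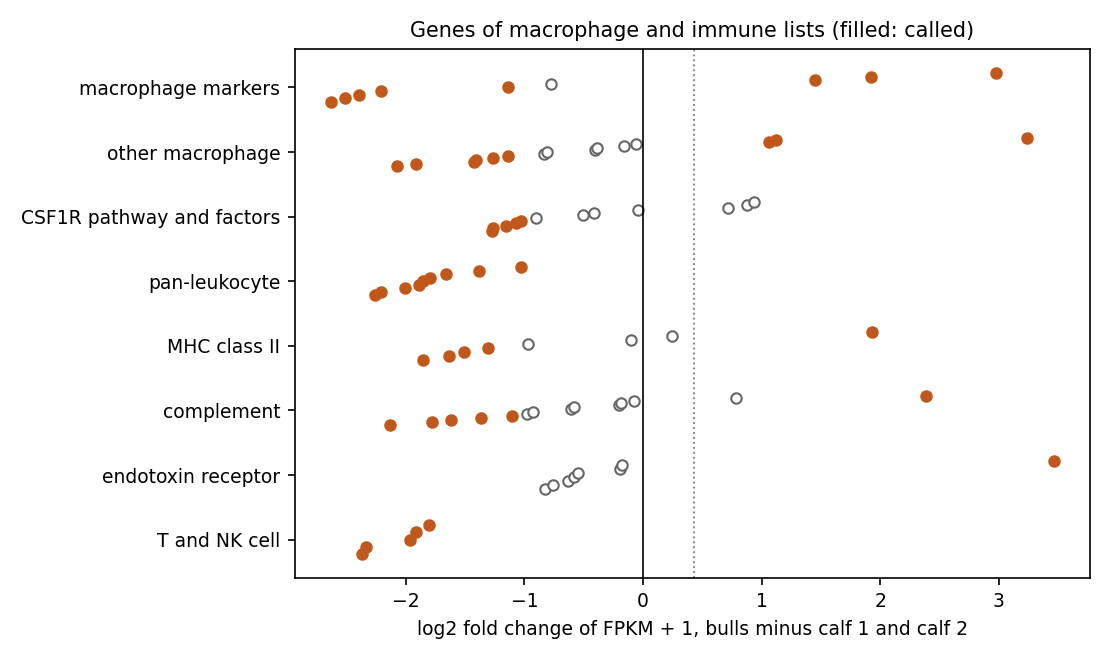
Log2 fold change of FPKM + 1 (bulls minus calf 1 and calf 2) for each tested gene of the macrophage markers and of 7 further lists, filled where called. The dotted line marks the median of 0.43 over all genes. The 9 pan-leukocyte genes and the 5 T and NK cell genes all lie to the left, and the macrophage markers, with 3 higher and 5 lower calls, lie on both sides.

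Markers of other cells that share the interstitium were read in the same way. Of 5 T and NK cell genes tested, 0 were called with all libraries and 5 were lower in bulls without calf 3 (median −1.96). With all libraries 0 of the 5 had an unadjusted p under 0.05 in limma, the lowest being that of LCK (0.0938). LCK, a kinase of T cells, was at 9.52 and 8.41 in calf 1 and calf 2, 0.611 in calf 3 and 0.811 to 1.19 in bulls, and differed by −2.34 (adjusted p = 3.93e-05) without calf 3. The summed FPKM of the 10 T and NK cell genes was 66.5 and 54.7 in calf 1 and calf 2, 2.19 in calf 3 and 6.12 to 11.5 in bulls, with CD3G and CD8B at 0 in calf 3. Of 7 endothelial genes tested, 1 was lower with all libraries and 0 were called without calf 3 (limma, median −0.30), where TIE1 had an adjusted p of 0.0338 at −0.75. TIE1 was the gene called with all libraries (−1.12, adjusted p = 0.0490). The endothelial sum was 28.8 and 12.3 in calf 1 and calf 2, 42.2 in calf 3 and 14.7 to 20.3 in bulls. Of 6 fibroblast and connective tissue genes, 2 were lower in bulls with all libraries (median −1.56) and 6 without calf 3 (median −2.81). Their sum was 728 and 383 in calf 1 and calf 2, 82.8 in calf 3 and 59.0 to 86.1 in bulls. The sum of calf 3 thus lay inside the range of the bulls, but not every gene did. PDGFRA was at 54.7 in calf 3 and at 12.5 to 19.0 in bulls, whereas 3 of the 6 genes, COL1A2, COL3A1 and DCN, were lowest in calf 3. Red blood cell genes, whose sum did not pass 3.58 in any library, were not tested. The part of these cells in the results above was not tested.

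Genes with a pattern most like the markers were named by Pearson r of log2(FPKM + 1) over the 6 libraries, which share the same animals, and are a description. Against the mean of the 9 markers, the highest were C3H1orf54 (r = 0.997), CYP1B1 (0.990), DNASE1L3, PTGIS, COX4I2, QSOX1, SLC29A1 and FBLN1 (0.985 to 0.988). Over the same libraries without calf 3, r of these 8 lay between 0.969 and 0.997. The 8 were picked for a high r, so that range is no independent check. The mean joins markers that went opposite ways, so single patterns were also taken, chosen after the values were seen. The C1q chains were followed most closely by ZC3HAV1, CD276 (r = 0.999) and GRN (0.996). GRN was at 33.1, 27.2 and 9.55 in calves and 9.81, 8.52 and 9.001 in bulls. For MRC1 these were KIF20A and TRIP13 (both 0.998), and for CD14 ANKRD49 (0.998) and RNASE6 (0.995). RNASE6 was at 18.6, 9.21 and 10.9 in calves and 70.1, 73.4 and 72.9 in bulls. CSF1R was most like S1PR1 (0.998) and HAVCR2 (0.997). Among the markers themselves, over the same 6 libraries, r was 0.976 between C1QA and C1QC, 0.988 between C1QB and CD74, and −0.957 between MRC1 and CSF1R. These r include calf 3, where MRC1 was lowest and CSF1R highest, and were not taken without it.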

How the data were processed

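Ribosomal RNA was removed from total RNA of 3 calf and 3 bull testes, and strand-specific libraries were made. The authors filtered reads for quality, discarded ribosomal ones (Bowtie2), used TopHat2 for mapping and StringTie for assembly. The deposited tables give FPKM per gene and per transcript and no counts, so the depth behind a value is unknown. The tool that made the FPKM values is not given in the sources used here. Positions are those of the tables: the Methods name UMD3.1.1, but 10 of 10 marker loci and 99.4% of 16434 shared symbols overlapped the locus of that symbol in RefSeq's ARS-UCD2.0 annotation, so the build of the positions is open. Sequences of genes and promoters were not analysed here.

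FPKM were transformed to log2(FPKM + 1), and features with at least 1 in at least 3 libraries were kept. C5, CPA3, MPO and TCONS_00208988, for example, reached 1 only in bulls, and CSF1, INPP5D, TIRAP and ITGAM only in calves. Such features passed the filter through the group where they were high, so their calls are not independent of it. Adding 1 draws fold changes of low genes toward 0. Calves and bulls were compared in limma 3.58.1 in R 4.3.3 (empirical Bayes with trend, two-sided, Benjamini-Hochberg over all features tested). Figures used Python 3.11.15 and matplotlib 3.10.9. On simulated data with 18115 genes and the spread of these libraries, 104 of 200 genes changed by 2 log2 units were recovered (52%), with 8 false calls. In 23212 simulated transcripts these were 106 and 7. Only 200 features were changed in each simulation, whereas 45.3% of genes were called in the data. The Benjamini-Hochberg adjustment depends on that share, so 52% is not the recovery of the fits above. An exact test of 3 animals against 3 cannot go below p = 0.1 and was not used. The labels give 1 animal per library, so p-values measure the spread between libraries of different animals. In fits with calf 3 that spread includes the departure of this library, whose markers go against its testis label. The standard error of C1QA, for example, was 0.93 with calf 3 and 0.27 without it.

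The markers and all other gene lists were chosen with earlier results of these data known. All 10 markers were named, and from each other list up to 4 tested genes with the largest log2 fold change, plus set regulators and defining markers. Exceptions are stated, and a few genes the rule names are not reported here. Alternatives changed the pseudocount, filter, scaling, weights, replicate block and libraries.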

Additional observations from a re-analysis of the deposited data

How the results depend on the processing

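Over 15 alternatives, between 2 and 8 of the 9 tested markers were called, against 6 with all libraries. Leaving out 1 library gave the whole range: 2 markers without bull 2 or bull 3, 3 without bull 1, 5 without calf 1 or calf 2, and 8 without calf 3. Over all genes 40.5%, 40.4%, 43.7% to 44.5% and 51.5% were then called. The cause was not tested. CD14 and the summed AIF1 value kept direction and call in all 15, whereas AIF1-201 with all libraries was called lower (−1.93). MRC1, CSF1R, C1QA, C1QB, C1QC and CD74 kept direction. CD163, never called, turned to 0.067 with a common FPKM total, 0.20 without calf 1, 0.12 without calf 2 and 0.0088 without bull 1, and its lowest value was −0.78, without calf 3. MRC1 lost its call in 8 alternatives, among them quantile normalization (1.62, adjusted p = 0.0877), and CSF1R in 6 (adjusted p up to 0.138). Scaling shifts all genes: after quantile normalization the median log2 fold change was −0.26 in place of 0.43, with 3827 genes higher and 4538 lower in place of 6474 and 1741, and 5 markers called, 2 higher and 3 lower. Median centring gave 4693 and 3631. With the replicate block, 6 markers and 8128 genes were called, against 8215 without it. Deviations of same-numbered calf and bull correlated by 0.0277, 0.0246 and 0.0341, each library best with its own number, but the animals share only a number. CD68 reached a test only under the looser filters (adjusted p = 0.0904 and 0.195). FPKM without counts give no counting error, which limits low genes such as CD68 most.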

Other observations

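Genes of other immune cells gave values outside the comparisons above. Of 4 tested B and plasma cell genes, 1 was higher in bulls, and 2 without calf 3. MS4A1, the B cell antigen CD20, was at 1.29, 1.45 and 0.227 in calves and 5.35, 4.61 and 5.002 in bulls (log2 fold change 1.65, adjusted p = 0.00413, limma, and 1.34 without calf 3). JCHAIN, which joins antibody units, varied between animals, with 27.0, 7.36 and 2.98 in bulls and 2.66, 1.93 and 3.71 in calves. Of 2 tested mast cell genes, 1 was higher in bulls, also without calf 3. This was CPA3, a protease of mast cells, at 1.59, 1.22 and 2.32 in bulls and at most 0.217 in calves (1.31, adjusted p = 0.00125, and 1.26 without calf 3). Among those not tested, MS4A2 and FCER1A did not pass 0.0819 in any library. HDC, also not tested, was higher in all bulls than in all calves, at 0.258 or less. MPO, an enzyme of neutrophil granules, was at 1.51, 2.58 and 1.25 in bulls and at most 0.0730 in calves (1.37, adjusted p = 0.00127, and 1.35 without calf 3). MPO and CPA3 reached an FPKM of 1 in bulls only, so they passed the filter through the group where they were high. Their calls are therefore not independent of it. Of the monocyte and neutrophil list, 2 genes were tested, with 1 higher in bulls, and 2 without calf 3. S100A9, not tested, was lower in all bulls than in all calves. With all libraries S100A8, S100A12, CSF3R and CXCR2 overlapped between the groups. BOLA-DQA1 differed between animals of one age, with 18.0, 0 and 3.40 in calves and 9.65, 0.0109 and 0.0138 in bulls.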
